A study of Mus musculus with 9 samples.

Results

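The comparison set 3 libraries of mouse embryos in which Hdac1 and Hdac2 had been knocked down together against 3 libraries in which Sin3a had been knocked down, and the control libraries took no part in the test. A gene entered it if 3 or more of the 9 libraries of the series held a normalised count of 10 or above, and these were 13343 of the 20087 named genes. It asks what losing the deacetylases does to the transcriptome that losing their scaffold does not. The embryos were of the B6D2F1 background, received small interfering RNA (siRNA) as zygotes and were collected at E2.75, and each library came from a pool of 60 whole embryos. The labels call the groups Hdac1/2 co-knockdown (Hdac1/2 cKD) and Sin3a knockdown (Sin3a KD), and the third group, labelled wild type, received a nonspecific siRNA (NC) and is shown here as background. No embryo was left uninjected, an siRNA lowers a messenger RNA (mRNA) without deleting the gene, and mRNA already laid down in the egg can persist. Whether the 3 pools of a group were collected separately is not in the labels, and each p-value reflects only how these libraries spread.

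Histone deacetylases 1 and 2 are the catalytic subunits that take acetyl groups off histone tails, and they work inside several corepressor complexes, among them Sin3, NuRD and CoREST. SIN3A has no enzymatic activity and serves as a scaffold on which the Sin3 complex is built, beside the paralogous scaffold SIN3B. Lowering SIN3A thus bears directly on 1 kind of complex without removing it, while lowering both deacetylases touches all of them. E2.75 lies around the morula stage, when outer cells begin to take the trophectoderm fate under the transcription factor CDX2 and inner cells keep the pluripotency factors.

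The estimated depth of the 6 knockdown libraries was 10.4 to 13.9 M reads, and their summed normalised counts were 11.9 to 12.6 M. Log2 values of replicates correlated across genes, which are not independent, with Pearson's r of 0.948 to 0.959 within Hdac1/2 cKD, 0.948 to 0.964 within Sin3a KD, and libraries of different knockdowns with 0.915 to 0.939. NC replicates correlated less closely (0.908 to 0.942), and their estimated depth was 8.47 to 16.8 M reads. A wider spread of NC makes an overlap of NC with a knockdown easier to meet. Its part in the orders of groups below was not tested. The first principal component of the 6 libraries took up 40.9% of the variance and separated Hdac1/2 cKD (42.0 to 51.8) from Sin3a KD (-56.5 to -39.5). The second component (17.8%) set Sin3a KD replicate 3, at 55.9, apart from replicates 1 and 2, at -21.4 and -43.8. The Hdac1/2 cKD libraries were sequenced on lanes 2, 2 and 3 and the Sin3a KD libraries on lanes 4, 3 and 3, in the order of the replicates. The NC libraries were on lanes 5, 2 and 3. Lane and knockdown can therefore be told apart only on lane 3, which held 1 and 2 libraries of them. Library values below are normalised counts in the order of replicates 1 to 3. A log2 difference is Hdac1/2 cKD minus Sin3a KD on the scale log2(value + 1), so that changes of low genes are understated, and it is given with its standard error and limma's p adjusted over all tested genes by the Benjamini-Hochberg method.

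The siRNA targets are given first. Hdac2 read 193, 350.3 and 371 in Hdac1/2 cKD, 2136, 2036 and 2008 in Sin3a KD, with NC at 2347, 2020.3 and 2492. Its Hdac1/2 cKD libraries lay below all others and its Sin3a KD libraries overlapped NC (log2 difference -2.81 ± 0.22, adjusted p = 2.74e-05). Sin3a read 1990.2, 2239.7 and 1903 in Hdac1/2 cKD, 354, 520.1 and 418 in Sin3a KD, with NC at 1779, 1215 and 1459, so that Sin3a KD lay below NC and Hdac1/2 cKD above it (log2 difference 2.26 ± 0.15, adjusted p = 2.34e-06). Hdac1 read 1052, 1007 and 769.6 in Hdac1/2 cKD, 1333, 2597 and 1802 in Sin3a KD, with NC at 6245, 4925 and 5536. Both knockdowns were below NC for Hdac1 without overlap, and Hdac1/2 cKD was the lower of them (log2 difference -0.98 ± 0.23, adjusted p = 0.0178). The comparison thus sets a large loss of Hdac1 and Hdac2 against a loss of Sin3a that comes with a smaller loss of Hdac1. The Hdac1 call was lost without Hdac1/2 cKD replicate 2 or 3, without Sin3a KD replicate 3 (highest adjusted p 0.0615) and with plain limma variances. Hdac1 also shares sequence with the predicted gene Gm10093, which read 84.6, 64.4 and 98.8 in Hdac1/2 cKD, 162, 350.2 and 259 in Sin3a KD, with NC at 844, 438 and 794.

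Promoters of 6 genes are shown because each stands for a pattern that recurs below. A gene is called high or low in one group alone where all 3 of its libraries lie beyond those of both other groups and the other groups overlap. They are the 250 bases before the transcription start from RefSeq (GRCm38.p6), 5′ to 3′ on the gene's own strand, in lower case with every CG pair in capitals. Padi3 and Gabbr1 were high in Hdac1/2 cKD alone, Tbx20 and Cdx2 low in Hdac1/2 cKD alone, Krt8 low in Sin3a KD alone, and Hdac5 lay on opposite sides of NC. The regions are chr4:140810649-140810898 (reverse strand) for Padi3, chr17:37045716-37045965 (forward) for Gabbr1, chr9:24774304-24774553 (reverse) for Tbx20, chr5:147307250-147307499 (reverse) for Cdx2, chr15:102004343-102004592 (reverse) for Krt8 and chr11:102230173-102230422 (reverse) for Hdac5. For Krt8 and Cdx2 the RefSeq start lies inside the longer gene span of the GENCODE annotation given below.
Padi3: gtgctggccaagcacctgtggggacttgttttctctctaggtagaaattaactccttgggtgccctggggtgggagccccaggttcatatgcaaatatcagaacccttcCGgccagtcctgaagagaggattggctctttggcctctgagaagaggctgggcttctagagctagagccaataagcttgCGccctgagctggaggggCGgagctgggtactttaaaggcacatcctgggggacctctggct
Gabbr1: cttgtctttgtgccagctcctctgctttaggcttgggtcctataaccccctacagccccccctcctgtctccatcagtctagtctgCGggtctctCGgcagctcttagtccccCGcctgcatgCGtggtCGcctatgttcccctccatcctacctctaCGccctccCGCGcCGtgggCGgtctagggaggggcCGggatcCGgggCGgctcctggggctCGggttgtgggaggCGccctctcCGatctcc
Tbx20: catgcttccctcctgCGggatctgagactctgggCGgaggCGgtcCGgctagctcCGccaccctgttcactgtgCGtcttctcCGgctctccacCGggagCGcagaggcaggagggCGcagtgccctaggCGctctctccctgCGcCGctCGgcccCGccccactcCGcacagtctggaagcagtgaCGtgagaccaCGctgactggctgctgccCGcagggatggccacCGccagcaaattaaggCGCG
Cdx2: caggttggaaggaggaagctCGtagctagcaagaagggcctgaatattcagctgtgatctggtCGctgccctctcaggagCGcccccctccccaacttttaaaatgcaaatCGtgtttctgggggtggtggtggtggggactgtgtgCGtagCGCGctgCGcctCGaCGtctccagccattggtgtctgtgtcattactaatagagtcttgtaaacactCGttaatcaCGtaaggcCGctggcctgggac
Krt8: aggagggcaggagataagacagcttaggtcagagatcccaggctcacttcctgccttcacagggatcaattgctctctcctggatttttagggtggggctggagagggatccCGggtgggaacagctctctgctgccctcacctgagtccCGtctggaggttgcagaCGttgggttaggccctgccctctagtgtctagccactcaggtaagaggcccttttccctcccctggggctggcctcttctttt
Hdac5: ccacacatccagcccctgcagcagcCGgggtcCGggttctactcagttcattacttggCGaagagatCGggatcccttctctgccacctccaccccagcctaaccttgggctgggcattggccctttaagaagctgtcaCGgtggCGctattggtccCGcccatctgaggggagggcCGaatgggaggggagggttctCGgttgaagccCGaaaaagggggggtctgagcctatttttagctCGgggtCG
The Padi3 and Krt8 windows hold 3 CG pairs each, Hdac5 12, Cdx2 13, Gabbr1 16 and Tbx20 22, where the motif CG reads the same on both strands. Over the 32851 windows of this length in the table the median is 6 (quartiles 2 and 16), 49.6% hold 5 or fewer and 27.3% hold 15 or more. Padi3 and Gabbr1, of the same pattern, thus lie on either side of that median, and Tbx20 and Cdx2 both above it. The table holds a promoter for 72.9% of the tested genes, so no comparison of promoters between sets was made.

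Of the 13343 genes, 1548 were higher (11.6%) and 1529 lower (11.5%) in Hdac1/2 cKD than in Sin3a KD at an adjusted p below 0.05, together 23.1%. The numbers called in each direction were thus nearly equal, but the sizes were not. Among the higher genes 703 differed by 1 or more on the log2 scale and 199 by 2 or more, against 403 and 59 among the lower genes. The median was 0.91 over the higher genes, -0.69 over the lower genes and 0.0093 over all tested genes. The knockdown groups did not overlap for 39.7% of tested genes, and 28 called genes had groups that overlapped. With lane as a factor, 306 genes were higher and 321 lower in the fit of 6 libraries, which has 2 residual degrees of freedom, and 450 and 552 with all 9 libraries. All called genes kept the sign of their difference in the former fit, which could not reverse a sign where the knockdown groups do not overlap. With plain variances (no trend, not robust) the counts were 954 and 827, and without Sin3a KD replicate 1 they were 1148 and 999. Rescaling by a trimmed mean gave 1352 and 1697, which moved the share of higher calls from 50.3% to 44.3%, and shifted the median of all genes to -0.031.

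**Figure D1:**
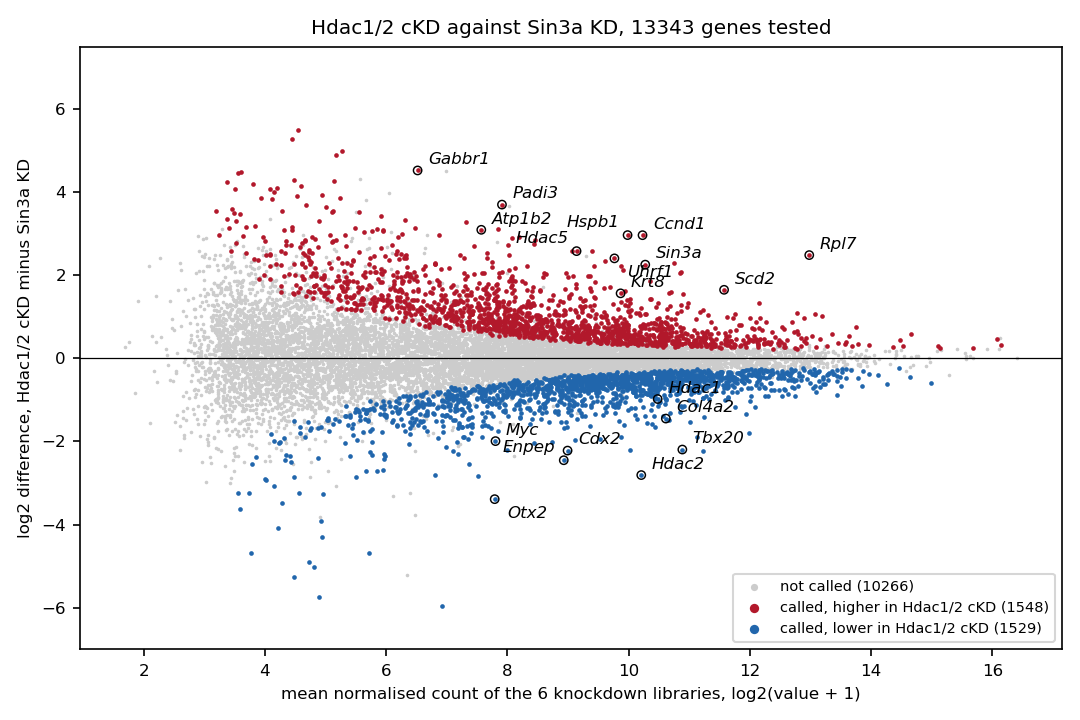
Log2 difference between Hdac1/2 cKD and Sin3a KD (y axis) against the mean normalised count of the 6 knockdown libraries on a log2(value + 1) scale (x axis), 1 point per tested gene; called genes are red (1548 higher) or blue (1529 lower) and the rest grey. Large differences upward outnumber those downward: 199 called genes lie at 2 or above and 59 at -2 or below.

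The 12 highest differences of called genes that averaged 50 or more, predicted gene models left out, were led by Gabbr1, a subunit of the receptor for the inhibitory transmitter GABA. It read 197, 181 and 133 in Hdac1/2 cKD, 28.1, 4.28 and 1.56 in Sin3a KD, with NC at 12.0, 18.3 and 2.63 (log2 difference 4.53 ± 0.77, adjusted p = 0.00267). Its gene spans 37045966 to 37075067 on chromosome 17. Padi3, a deiminase that turns arginine residues of proteins into citrulline, read 391, 449 and 498 in Hdac1/2 cKD, 32.0, 28.3 and 40.1 in Sin3a KD, with NC at 33.9, 19.6 and 41.4 (log2 difference 3.70 ± 0.24, adjusted p = 2.68e-06). Both genes had NC values that overlapped Sin3a KD and lay far below Hdac1/2 cKD. The same order of groups held for Bcam (3.43), a laminin-binding adhesion protein, Ngfrap1 (3.34), Hmha1 (3.28), a GTPase-activating protein, Nppb (3.14), a natriuretic peptide, Tspan13 (3.12), a tetraspanin, Lrp3 (3.07), an endocytic receptor, and Dse (3.07), an enzyme of dermatan sulfate synthesis. Hkdc1, a hexokinase family member, differed by 3.09, but there the Sin3a KD libraries (5.15, 14.9 and 18.5) lay below NC (76.6, 29.0 and 54.9) and Hdac1/2 cKD (73.9, 113 and 138) overlapped NC. Myh14, a nonmuscle myosin heavy chain (3.11), and Atp1b2 (3.10) had NC between the knockdowns. In the 6-library fit with lane, the calls of Dse and Myh14 were lost (adjusted p 0.0534 to 0.0689). Further calls were lost for Dse with plain variances and for Dse with all 9 libraries in the fit.

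Among the 12 lowest differences was Hdac2 itself. The homeobox gene Otx2 read 33.0, 61.1 and 25.3 in Hdac1/2 cKD, 347, 455 and 402 in Sin3a KD, with NC at 75.9, 193 and 75.8 (log2 difference -3.39 ± 0.31, adjusted p = 2.51e-05). Dusp6, a phosphatase that switches off the kinase ERK, read 83.6, 50.5 and 18.2 in Hdac1/2 cKD, 338, 334 and 264 in Sin3a KD, with NC at 144, 229 and 118 (log2 difference -2.83 ± 0.46, adjusted p = 0.00221). In both, NC lay between the knockdowns without overlap, as it did for Enpep (-2.45), an aminopeptidase of the cell surface, Dpysl4 (-2.54) and the epithelial transcription factor Grhl3 (-2.42). Hlf, a leucine zipper transcription factor, was low in Hdac1/2 cKD alone (-2.71), and for Cyb5rl (-2.35) NC overlapped both groups. The other 4 of the 12 varied widely between libraries. D3Ertd254e read 46.3, 0 and 0 in Hdac1/2 cKD and 188, 238 and 254 in Sin3a KD, Cbl 0, 39.97 and 0 and 102, 107 and 61.0, Duxbl3 11.2, 58.9 and 15.0 and 60.0, 304 and 217, and Ahrr 2.78, 27.7 and 16.4 and 41.1, 222 and 53.1. Their adjusted p-values in the full fit were 0.0311 to 0.0482, and each call was lost in at least 4 of the 6 fits that leave 1 library out (highest adjusted p 0.194, 0.191, 0.13 and 0.12). Lane as a factor (6 libraries) ended the call of Grhl3 (adjusted p 0.0736). Other losses were those of Cyb5rl with lane in the 9-library fit.

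NC was not in the test, and its place relative to the knockdowns is given as a description. The NC mean lay nearer to Sin3a KD for 948 (61.2%) of the genes called higher and 959 (62.7%) of those called lower, against 54.0% of all tested genes. It lay between the knockdown means in 60.2% of higher and 67.5% of lower genes, against 34.9% of all tested genes. Called genes were selected for a gap between these means, and a wider gap holds NC more often. The excess over all tested genes is therefore partly built in, and how much of it was not tested. Leaving out NC replicate 3, the control library with the most genes at 0 (28.4%), gave 60.6% and 67.1% nearer to Sin3a KD (55.1% of all). Leaving out NC replicate 2 gave the lowest values, 58.5% and 58.3% (52.7% of all). The lower genes depended on scaling: with all libraries set to equal totals, NC was nearer to Sin3a KD for 70.1% of higher but only 49.2% of lower genes.

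**Figure D2:**
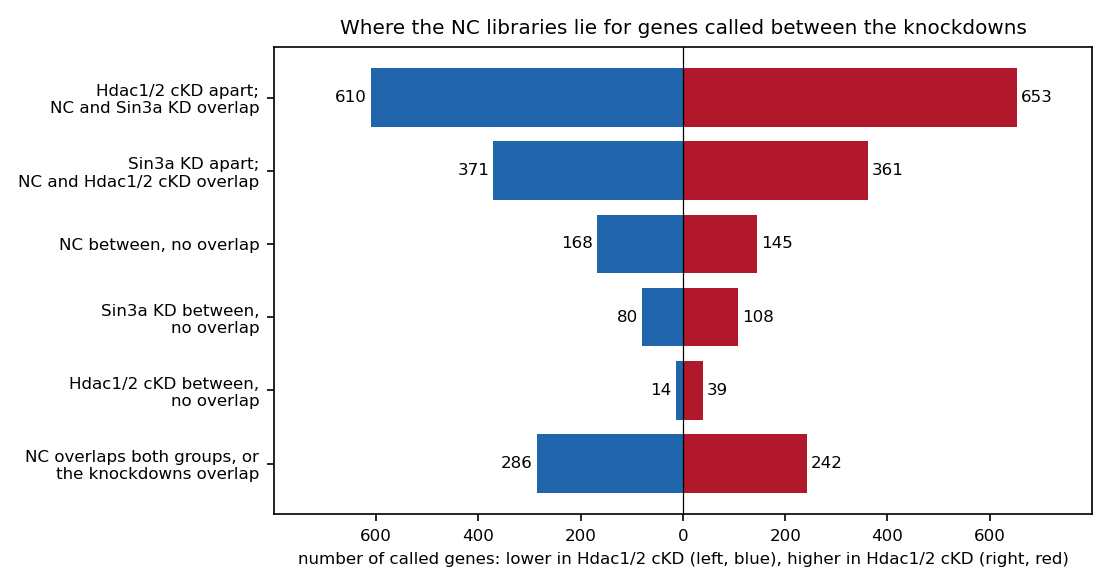
Number of called genes (x axis) by the order of the 3 groups' libraries (rows), with genes lower in Hdac1/2 cKD than in Sin3a KD to the left in blue and higher genes to the right in red. Hdac1/2 cKD stood apart from both other groups for 653 higher and 610 lower genes, Sin3a KD for 361 and 371, and NC lay between them without overlap for 145 and 168. Over all tested genes these orders held for 1000 and 884, for 573 and 603, and for 151 and 175.

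The most frequent order of called genes was Hdac1/2 cKD apart, with NC and Sin3a KD overlapping, in 653 higher and 610 lower genes. Of all tested genes, 1000 (7.49%) and 884 (6.63%) had that order, against 42.2% of higher and 39.9% of lower genes. Such an order holds the knockdown groups apart, so its larger share among called genes is partly built in. An overlap with NC at 3 libraries does not show that Sin3a KD left a gene unchanged. Among the higher genes, Hspb1, a small heat shock protein, read 1557, 1915 and 1902 in Hdac1/2 cKD, 290.2, 222 and 181 in Sin3a KD, with NC at 186, 262 and 253 (log2 difference 2.97 ± 0.17, adjusted p = 1.81e-06). Ccnd1, encoding cyclin D1, which drives entry into the DNA synthesis phase, read 1957, 1896 and 2524 in Hdac1/2 cKD, 203, 330.3 and 288 in Sin3a KD, with NC at 180.1, 276 and 275 (log2 difference 2.97 ± 0.18, adjusted p = 2.68e-06). In both, each Hdac1/2 cKD library was several times any other library. Among the lower genes, Tbx20, a T-box factor known from heart development (chromosome 9, 24718138 to 24774303), read 659.8, 763 and 617 in Hdac1/2 cKD, 3261, 3043 and 3009 in Sin3a KD, with NC at 3013, 2599.8 and 2483 (log2 difference -2.19 ± 0.11, adjusted p = 7.57e-07). Tdgf1, the coreceptor of Nodal, read 722, 828 and 944 in Hdac1/2 cKD, 2173, 2581 and 1830.4 in Sin3a KD, with NC at 2376, 2302 and 2052 (log2 difference -1.39 ± 0.14, adjusted p = 4.74e-05). For both, no Hdac1/2 cKD library reached the lowest value of NC or Sin3a KD.

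Sin3a KD stood apart, with NC and Hdac1/2 cKD overlapping, in 361 called genes that were low and 371 that were high in Sin3a KD. Of all tested genes, 573 (4.29%) and 603 (4.52%) had these orders. Wwc1, encoding KIBRA, an upstream member of the Hippo pathway, read 730.2, 706 and 975 in Hdac1/2 cKD, 181, 236 and 165 in Sin3a KD, with NC at 488, 503 and 876 (log2 difference 2.05 ± 0.19, adjusted p = 2.51e-05). Hspa4, a chaperone that acts as a nucleotide exchange factor, read 6232, 6458 and 5533 in Hdac1/2 cKD, 2898, 3724 and 2719 in Sin3a KD, with NC at 6258, 4554 and 5360.1 (log2 difference 0.97 ± 0.12, adjusted p = 0.000176). Both were low only in the Sin3a KD libraries. Genes high in Sin3a KD included Col4a2, a collagen IV chain of the basement membrane, at 749, 917 and 846 in Hdac1/2 cKD, 2701, 2091 and 2096 in Sin3a KD, with NC at 1150.5, 1322 and 741 (log2 difference -1.45 ± 0.13, adjusted p = 1.7e-05). Fzd5, a Wnt receptor, read 344, 334 and 329.6 in Hdac1/2 cKD, 924, 849 and 762 in Sin3a KD, with NC at 351, 495 and 325 (log2 difference -1.32 ± 0.14, adjusted p = 4.84e-05). For both, every Sin3a KD library exceeded every other library. Kdm6b, a demethylase of H3K27, shared that order (-0.61).

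NC lay between the knockdowns without overlap for 145 higher and 168 lower genes, against 151 and 175 of all tested genes with that order. The order itself holds the knockdown groups apart, so the closeness of these counts is partly built in. Rdx, encoding radixin, which ties the membrane to actin, read 2170.1, 1915 and 2105 in Hdac1/2 cKD, 516, 596 and 580.2 in Sin3a KD, with NC at 651, 728 and 665 (log2 difference 1.87 ± 0.11, adjusted p = 1.81e-06). Scd2, a stearoyl-CoA desaturase, read 4687, 4448 and 4748 in Hdac1/2 cKD, 1482, 1396 and 1539 in Sin3a KD, with NC at 1976, 1626 and 2184 (log2 difference 1.65 ± 0.086, adjusted p = 7.57e-07). In both genes the 3 groups were separate, with Hdac1/2 cKD on top. Hdac5, a class II deacetylase on chromosome 11 (102194432 to 102230166), read 1187, 834 and 874 in Hdac1/2 cKD, 141, 219 and 127 in Sin3a KD, with NC at 658, 628 and 580.0 (log2 difference 2.58 ± 0.22, adjusted p = 1.7e-05). On the other side stood Wwtr1, encoding TAZ, the partner of YAP, at 807, 943 and 948 in Hdac1/2 cKD, 2001, 2054 and 1877 in Sin3a KD, with NC at 1605, 1532 and 1489 (log2 difference -1.14 ± 0.11, adjusted p = 2.72e-05). Bbx, an HMG-box factor with noncanonical imprinting, read 871, 741 and 936 in Hdac1/2 cKD, 2327, 2199 and 2622 in Sin3a KD, with NC at 1283, 1615 and 1277 (log2 difference -1.49 ± 0.12, adjusted p = 8.71e-06). In these 2 genes Sin3a KD was the highest group and Hdac1/2 cKD the lowest. A stepwise order was also found: 108 higher genes (of 185 tested with it) had Hdac1/2 cKD above Sin3a KD above NC, and 80 lower genes (of 162) had NC above Sin3a KD above Hdac1/2 cKD. Ldha, lactate dehydrogenase A, belonged to the former at 2380.1, 2739 and 3444 in Hdac1/2 cKD, 589.5, 484 and 659.7 in Sin3a KD, with NC at 256, 246 and 418 (log2 difference 2.30 ± 0.15, adjusted p = 4.3e-06), and Myc to the latter at 90.8, 114 and 65.1 in Hdac1/2 cKD, 432, 307 and 327 in Sin3a KD, with NC at 713, 543 and 500.1 (log2 difference -1.99 ± 0.25, adjusted p = 0.000194). The same order with the knockdowns exchanged was rarer, with 14 and 39 called genes, of 53 and 79 tested with it.

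**Figure D3:**
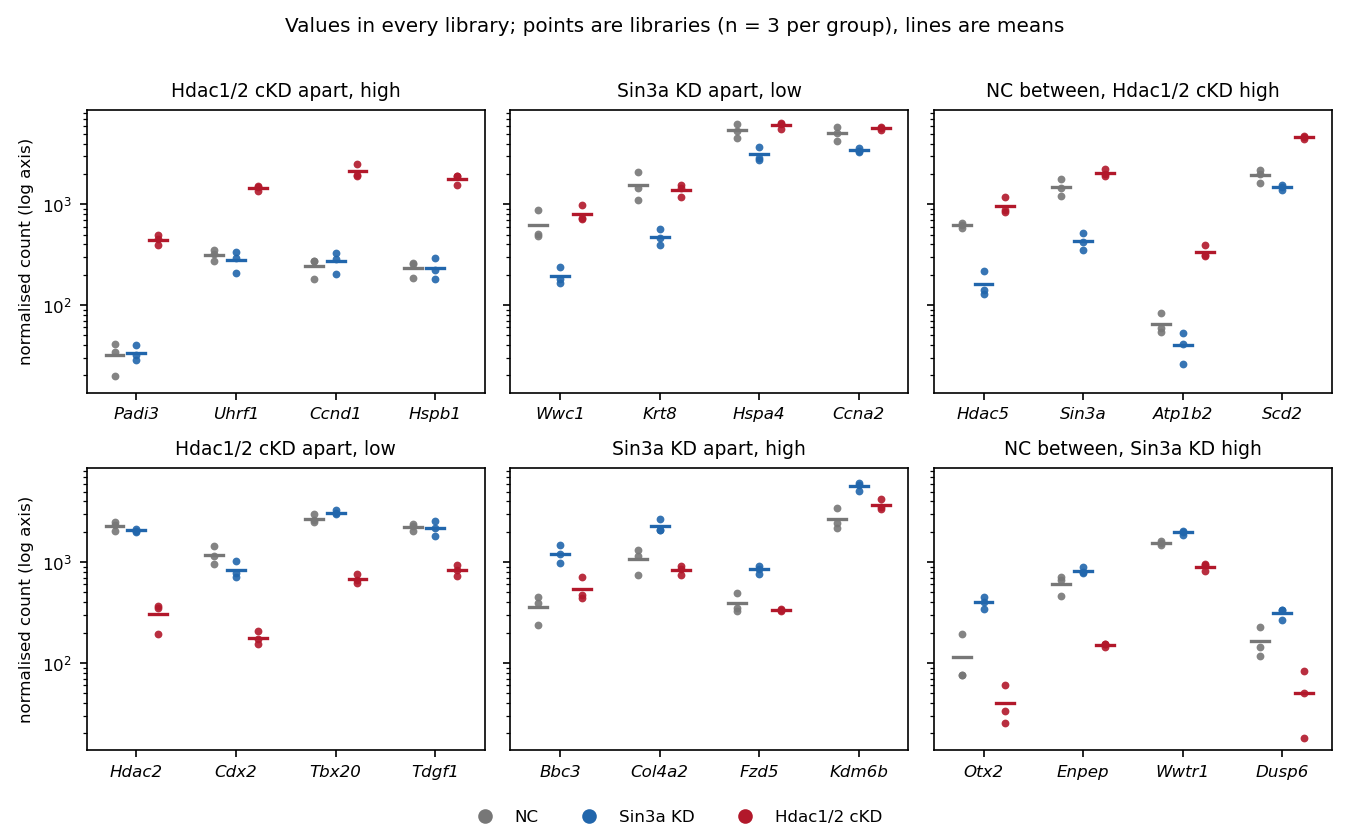
Normalised count on a log axis (y) in every library of 24 genes (x), 4 for each of 6 orders of the groups; grey points are NC, blue Sin3a KD and red Hdac1/2 cKD, with n = 3 per group and bars at the means. Padi3, 391 to 498 in Hdac1/2 cKD but 28.3 to 40.1 in Sin3a KD, has NC at the Sin3a KD level, while Krt8 at 391 to 566 in Sin3a KD lies below both other groups.

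Gene groups follow, each read against the 11.6% of tested genes called higher, the 11.5% called lower and the median of 0.0093. Their counts fell too in the 6-library fit with lane. There mitosis genes had 3 higher and 0 lower, neuronal genes 3 and 2, chaperones 4 and 0, glycolysis genes 4 and 1, DNA methylation genes 3 and 0, and inner cell mass genes 2 and 5. The p53 list had 0 and 1, and the ribosome biogenesis, integrated stress response and Nodal, BMP and TGF beta lists had 0 in both directions. Leaving out 1 library lowered several counts by more than 1.5 times. Its ranges were 7 to 12 higher neuronal genes, 7 to 11 higher germline genes, 4 to 8 higher and 3 to 7 lower lipid synthesis genes, 5 to 11 lower p53 genes and 3 to 7 lower CoREST genes. They were 3 to 6 higher DNA replication genes, 3 to 6 higher Polycomb genes, 2 to 6 higher and 1 to 5 lower remodelers, 3 to 7 lower ribosome biogenesis genes, 3 to 6 higher solute carriers and 2 to 5 higher lysosome genes. Among deacetylases of classes I, II and IV, 1 of 11 tested genes was higher (Hdac5) and 2 were lower (the targets). The other 8 did not pass, among them Hdac3 (0.081, mean 373 in Hdac1/2 cKD and 352 in Sin3a KD). Of 25 tested Sin3 complex genes, 5 were higher and 7 lower (median 0.07). Apart from the targets, the largest were Mxi1, a MAX partner that recruits SIN3 (1.06), and Sap30, a Sin3 subunit that read 736, 665 and 642 in Hdac1/2 cKD, 1527, 1004 and 1393 in Sin3a KD, with NC at 497, 718 and 470.4 (log2 difference -0.92 ± 0.15, adjusted p = 0.00121). Sap30 was thus highest in Sin3a KD, where its scaffold was lowered, and the paralogous scaffold Sin3b read 1095 and 1043 on average (0.071, not called). Of 15 NuRD genes, 5 were higher and 3 lower. Gatad2a, a core NuRD subunit, read 2638, 3044 and 3051 in Hdac1/2 cKD, 1393, 1694 and 1464 in Sin3a KD, with NC at 1529.8, 1739.7 and 1515 (log2 difference 0.94 ± 0.11, adjusted p = 9.39e-05), and the remodeler Chd4 differed by 0.59 and the subunit Mta1 by 1.06. CoREST genes had 7 lower, the targets included, and 3 higher of 16 (median -0.39). Ctbp2, a corepressor, differed by -0.59, Rreb1 by -0.50, and Zmym3 was higher (1.16). In the NCoR and MiDAC complexes 2 of 8 were higher, among them Tbl1x (1.42), an NCoR subunit. The calls of Sap30, Chd4, Mta1, Ctbp2 and Zmym3 were lost in the 6-library fit with lane (adjusted p 0.0574 to 0.144). Calls were also lost for Rreb1 with plain variances and for Rreb1 with all 9 libraries in the fit.

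Other chromatin regulators moved in both directions. Histone acetyltransferases had 3 higher and 4 lower of 16, with the largest difference in Kat6a (-0.76), and Taf1 (0.51), a subunit of the general factor TFIID, on the other side. Of 32 Polycomb genes, 7 were higher and 7 lower (median 0.013). Cbx2, which reads H3K27me3 in Polycomb repressive complex 1, read 554, 523 and 485 in Hdac1/2 cKD, 197, 125 and 160.4 in Sin3a KD, with NC at 138, 143 and 97.1 (log2 difference 1.71 ± 0.20, adjusted p = 0.000111), and Pcgf5, a subunit of a variant form of that complex, 257, 307 and 322 in Hdac1/2 cKD, 761, 663 and 741 in Sin3a KD, with NC at 497, 858 and 502 (log2 difference -1.29 ± 0.15, adjusted p = 0.000116). Each had Hdac1/2 cKD apart, Cbx2 high and Pcgf5 low. Pcgf2 (1.35) and Scmh1 (1.38) were higher too, while Ezh2, the H3K27 methyltransferase, differed by -0.45. Histone methyltransferases and demethylases had 3 higher and 8 lower of 34 (median 0.072). Kmt2a, an H3K4 methyltransferase, was higher (1.64), and the demethylases Kdm3a (-0.96) and Kdm6b (-0.61) were lower. Among 29 remodelers and bromodomain genes 6 were higher and 6 lower, and the alternative BAF subunits Arid1a (0.63) and Arid1b (-0.89) lay on opposite sides. The histone variant gene H2afy, encoding macroH2A1, was higher (log2 difference 1.11 ± 0.11, adjusted p = 4.69e-05), as were H3f3b (0.71) and H2afz (0.48), among 4 higher and 2 lower of 20 variant and linker genes. The architectural gene Hmga1 read 2673, 2668 and 3353 in Hdac1/2 cKD, 1239.6, 908 and 1323 in Sin3a KD, with NC at 399.9, 526 and 594 (log2 difference 1.33 ± 0.15, adjusted p = 0.000131) and its paralogue Hmga2 differed by -0.35. In the 6-library fit with lane, the calls of Taf1, Pcgf2, Scmh1, Ezh2, Arid1a, H2afz and Hmga2 were lost. Further calls were lost for Arid1b with lane in the 9-library fit and for Kat6a, Taf1, Ezh2, H2afz and Hmga2 with plain variances.

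DNA methylation genes were higher in Hdac1/2 cKD in 9 of 25 tested members and lower in 1 (median 0.24). Uhrf1, which brings the maintenance methyltransferase to replicated DNA, read 1486, 1367 and 1529 in Hdac1/2 cKD, 210.1, 290.3 and 336 in Sin3a KD, with NC at 321, 351 and 272 (log2 difference 2.41 ± 0.17, adjusted p = 4.1e-06). Dnmt1, that methyltransferase, read 1904, 2053 and 1800.4 in Hdac1/2 cKD, 896, 1112 and 930.1 in Sin3a KD, with NC at 1074, 898 and 845 (log2 difference 0.97 ± 0.11, adjusted p = 0.000119). Tdg, a glycosylase that removes oxidised methylcytosine, read 142, 119 and 103 in Hdac1/2 cKD, 23.2, 20.4 and 17.4 in Sin3a KD, with NC at 21.9, 55.2 and 10.2 (log2 difference 2.52 ± 0.33, adjusted p = 0.000274). All 3 had Hdac1/2 cKD above every other library, and NC overlapped Sin3a KD. Dnmt3l, the cofactor of new methylation in germ cells, went the other way at 161, 141 and 235 in Hdac1/2 cKD, 403, 347 and 486 in Sin3a KD, with NC at 292, 389.7 and 395 (log2 difference -1.22 ± 0.22, adjusted p = 0.00216). Of 20 tested canonical imprinted genes 4 were higher and 2 lower (median -0.14). Impact (1.27) and Ube3a (1.05) were low in Sin3a KD alone. The placental growth restrictor Phlda2 read 92.9, 108 and 169.7 in Hdac1/2 cKD, 62.4, 37.5 and 37.4 in Sin3a KD, with NC at 20.9, 29.4 and 0 (log2 difference 1.41 ± 0.34, adjusted p = 0.0106), and Snrpn differed by -0.29. Genes with noncanonical imprinting had 3 higher and 4 lower of 13: Sfmbt2 was stepwise (1390.2, 1077 and 1299 in Hdac1/2 cKD, 398, 519 and 782 in Sin3a KD, with NC at 154, 254 and 189), and Etv6 low in Hdac1/2 cKD alone (-1.35). Lane as a factor (6 libraries) ended the calls of Dnmt3l, Ube3a, Snrpn and Sfmbt2 (adjusted p 0.0661 to 0.308). Other losses were those of Tdg and Phlda2 with lane in the 9-library fit, of Snrpn with plain variances, of Phlda2 with all 9 libraries in the fit and of Snrpn with no filter. The Phlda2 call was lost without Hdac1/2 cKD replicate 3 (highest adjusted p 0.0554). The Snrpn call was lost without Hdac1/2 cKD replicate 1, 2 or 3 or Sin3a KD replicate 1 (highest adjusted p 0.117).

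Each of the 3 lineage lists had more lower than higher calls in Hdac1/2 cKD. In bulk libraries, fewer cells of a type and less RNA per cell cannot be told apart. Trophectoderm genes had 9 lower and 5 higher of 23 (median 0.053). Cdx2, the trophectoderm master factor (chromosome 5, 147300805 to 147307270), read 174, 205 and 155 in Hdac1/2 cKD, 1036, 776 and 705 in Sin3a KD, with NC at 1461, 955 and 1142 (log2 difference -2.22 ± 0.18, adjusted p = 1.23e-05). Gata3, which acts beside it, read 398, 394 and 334 in Hdac1/2 cKD, 880.1, 696 and 877 in Sin3a KD, with NC at 709, 704 and 807 (log2 difference -1.12 ± 0.15, adjusted p = 0.000283). Hdac1/2 cKD lay below both other groups for each. Fgfr2, the FGF receptor of the outer cells and of the primitive endoderm, shared this order (-1.64), as did Tfap2c (-0.63). The 5 higher genes were the keratins Krt8, Krt18 and Krt7, the chromatin organiser Satb1 and the endocytic receptor Lrp2. Krt8 (chromosome 15, 101996698 to 102004482) read 1177, 1568 and 1439 in Hdac1/2 cKD, 391, 566 and 459 in Sin3a KD, with NC at 1462, 1095 and 2098 (log2 difference 1.57 ± 0.16, adjusted p = 4.38e-05), and Krt18, its partner in the filament, 647, 719 and 665 in Hdac1/2 cKD, 406, 367 and 344 in Sin3a KD, with NC at 658, 499 and 703 (log2 difference 0.86 ± 0.14, adjusted p = 0.000947). Krt8 and Krt18 were low in Sin3a KD alone, whereas Cdx2 was low in Hdac1/2 cKD alone. Krt7 differed by 1.24 and had no such order. Lrp2 differed by 1.00. The summed level of 9 trophectoderm markers lay within 4959 to 5551 after the co-knockdown, 6081 to 6821 in Sin3a KD and 7269.9 to 9293 in NC. Tfap2c, averaging 2429, 3770 and 4272 in that order of groups, is the largest part of this sum. Krt8 and Krt18, also in it, went the other way between the knockdowns. The calls of Krt7 and Satb1 were lost in the 6-library fit with lane. Calls were also lost for Krt7 with plain variances and for Krt7 with all 9 libraries in the fit. The Krt7 call was lost without Hdac1/2 cKD replicate 1 or 2 or Sin3a KD replicate 1 or 3 (highest adjusted p 0.104).

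Inner cell mass and pluripotency genes had 13 lower and 4 higher of 28, with a median of -0.35. Tdgf1, Otx2 and Myc, given above, were among the lower genes. The orphan receptor gene Esrrb was low in Hdac1/2 cKD alone, at 1136, 1499.8 and 1514 in Hdac1/2 cKD, 3466, 3024 and 2583 in Sin3a KD, with NC at 3116, 2604 and 1949 (log2 difference -1.13 ± 0.14, adjusted p = 0.000196). Pou5f1, encoding OCT4, read 13954, 16012 and 16142 in Hdac1/2 cKD, 20398, 20929.6 and 19180.0 in Sin3a KD, with NC at 19326, 19065 and 19477 (log2 difference -0.39 ± 0.078, adjusted p = 0.00344), a small difference in a highly expressed gene. The RNA-binding protein gene Lin28a was higher in Hdac1/2 cKD than in both other groups, at 4153, 4458 and 4802 in Hdac1/2 cKD, 2251, 2579 and 2033 in Sin3a KD, with NC at 2058, 2480.2 and 1883 (log2 difference 0.97 ± 0.10, adjusted p = 6.32e-05). Fgf4, the ligand by which inner cells signal, read 326, 469.7 and 461 in Hdac1/2 cKD, 74.4, 145 and 129.9 in Sin3a KD, with NC at 193, 179 and 218 (log2 difference 1.88 ± 0.27, adjusted p = 0.000433), with NC between. Nanog averaged 931 in Hdac1/2 cKD, 628 in Sin3a KD and 1335 in NC, and did not pass (log2 difference 0.63 ± 0.23, adjusted p = 0.0797). The list did not move as 1 block, then. Its 7 markers summed to 19141 to 21828 after the co-knockdown and 27101 to 29959.9 in Sin3a KD, a sum that Pou5f1 dominates. Primitive endoderm genes had 6 lower and 3 higher of 14 (median -0.39). Pdgfra, a receptor of that lineage, read 95.6, 66.7 and 58.5 in Hdac1/2 cKD, 205, 232 and 178 in Sin3a KD, with NC at 130.2, 175 and 163 (log2 difference -1.49 ± 0.26, adjusted p = 0.00169), and Gata6, its early factor, differed by -0.55. Of the 3 higher genes, Lama1 averaged 46.7 and Amn 177 in Hdac1/2 cKD, and Lrp2 also stands in the trophectoderm list. In the 6-library fit with lane, the calls of Pou5f1 and Gata6 were lost. Further calls were lost for Pou5f1 and Gata6 with plain variances.

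Hippo pathway genes, through which cells sense contact and position, had 4 higher and 7 lower of 24 (median -0.14). The DNA-binding partner Tead2 read 279, 299 and 359 in Hdac1/2 cKD, 55.1, 69.3 and 103 in Sin3a KD, with NC at 127, 68.6 and 73.8 (log2 difference 2.07 ± 0.26, adjusted p = 0.0002), while Tead4, the TEAD factor of trophectoderm, differed by -0.54. With Wwc1 and Wwtr1 on opposite sides (above), Frmd6, an upstream component, read 285, 281 and 282 in Hdac1/2 cKD, 626, 593 and 627 in Sin3a KD, with NC at 408, 445 and 430.5 (log2 difference -1.12 ± 0.14, adjusted p = 0.000194), lower in Hdac1/2 cKD. Yap1 did not pass (0.18). Polarity and junction genes had 8 higher and 7 lower of 31 (median -0.14). Cldn6, a tight junction claudin, read 1135, 957 and 1146 in Hdac1/2 cKD, 266, 243 and 409.7 in Sin3a KD, with NC at 198, 247 and 182 (log2 difference 1.85 ± 0.19, adjusted p = 5.8e-05), and the apical kinase Prkcz differed by 0.78. Dsp, the desmosomal plaque protein, was low in Hdac1/2 cKD at 401, 394 and 375 in Hdac1/2 cKD, 828, 907 and 811 in Sin3a KD, with NC at 572, 830.0 and 618 (log2 difference -1.12 ± 0.13, adjusted p = 0.000111), and Cdh1, E-cadherin, differed by -0.36. Of 8 genes for the sodium pump and water channels that fill the blastocyst cavity, 4 were higher and none lower (1 lower at an unadjusted p below 0.05 in limma). Atp1b2, a pump beta subunit, read 317, 307 and 390.2 in Hdac1/2 cKD, 41.0, 26.2 and 52.5 in Sin3a KD, with NC at 58.7, 83.2 and 54.5 (log2 difference 3.10 ± 0.29, adjusted p = 2.53e-05), and Atp1b3 was also higher, by less (0.38). Basement membrane genes had 6 lower and 3 higher of 20 (median -0.13). Besides Col4a2, Col4a1 (-0.81), whose gene neighbours it, and fibronectin Fn1 (-1.23) were highest in Sin3a KD, and P4ha1, which hydroxylates collagen, was low in Hdac1/2 cKD alone (-0.96). Lane as a factor (6 libraries) ended the calls of Tead4, Cdh1, Atp1b3, Col4a1 and Fn1. Other losses were those of Tead4, Cdh1 and Atp1b3 with plain variances and of Atp1b3 with all 9 libraries in the fit. The Atp1b3 call was lost without Hdac1/2 cKD replicate 1 or 3 or Sin3a KD replicate 1 or 2 (highest adjusted p 0.0929).

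FGF and MAPK genes had 4 higher and 4 lower of 23 (median -0.0024): the ligand Fgf4 and the kinases Mapk3 (ERK1, 1.82) and Map2k1 (MEK1, 0.73) were higher, and the receptor Fgfr2 and the inhibitors Dusp6 and Spry2 (-0.72) lower. Mapk3 read 516, 569.6 and 376 in Hdac1/2 cKD, 122, 134 and 151 in Sin3a KD, with NC at 188, 181 and 195, with NC between the knockdowns. Wnt genes had 7 higher and 3 lower of 27 (median 0.23). The feedback inhibitor Axin2 read 121, 129.8 and 151 in Hdac1/2 cKD, 30.2, 32.6 and 38.4 in Sin3a KD, with NC at 54.6, 20.04 and 15.3 (log2 difference 1.96 ± 0.29, adjusted p = 0.000602) and the coreceptor Lrp5 was stepwise (0.80), while the receptor Fzd5 was high in Sin3a KD. Notch genes had 4 higher and 2 lower of 17, led by the receptor Notch3 (122, 107 and 175 in Hdac1/2 cKD, 34.5, 13.2 and 24.7 in Sin3a KD, with NC at 16.6, 15.8 and 32.6, log2 difference 2.50 ± 0.40, adjusted p = 0.000899) and the ligand Jag2 (0.76). In the Nodal, BMP and TGF beta list 4 of 27 were higher and 5 lower (median 0.12). Smad5 (2.06) and the activin receptor Acvr1b (1.05) stood on one side and Smad3 (-1.11) on the other. Immediate early and AP-1 genes had 3 higher and 4 lower of 26, with Jun at 349, 492 and 349.7 in Hdac1/2 cKD, 801, 708 and 882 in Sin3a KD, with NC at 654, 629.6 and 590.5 (log2 difference -1.02 ± 0.17, adjusted p = 0.00103). The calls of Spry2, Lrp5, Smad5, Acvr1b and Smad3 were lost in the 6-library fit with lane. Calls were also lost for Axin2 with lane in the 9-library fit.

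Among cell cycle genes the mitosis list had the most calls. Mitosis genes had 14 higher and 2 lower of 41, a median of 0.32. Ccna2, cyclin A2, read 5819, 5732 and 5454 in Hdac1/2 cKD, 3321, 3607 and 3334 in Sin3a KD, with NC at 5788, 4281 and 5112 (log2 difference 0.73 ± 0.08, adjusted p = 7.78e-05). The kinases Aurka (0.54) and Aurkb (0.74), which order the spindle and the centromere, were likewise low in Sin3a KD alone, whereas Birc5, survivin, was high in Hdac1/2 cKD alone (0.62). The mitotic differences were small, from 0.40 to 1.30 among the 14. In the list of G1 and S entry genes 5 of 25 were higher and 2 lower. All 3 D-type cyclins were higher, Ccnd1 as given, Ccnd3 at 4729, 4776 and 4522 in Hdac1/2 cKD, 2528, 2039 and 2176 in Sin3a KD, with NC at 2139, 1779.5 and 2378 (log2 difference 1.06 ± 0.10, adjusted p = 2.07e-05) and Ccnd2 at much lower values (2.16). Their kinase partner Cdk4 did not pass (-0.22). Cdc25a, the phosphatase that releases CDK2, was lower (-0.57), with the order NC above Sin3a KD above Hdac1/2 cKD. DNA replication genes had 7 higher and 5 lower of 45 (median -0.028), shares near those of all genes, with Cdc6, which loads the MCM helicase, lowest in Hdac1/2 cKD (2016, 1793 and 1823 in Hdac1/2 cKD, 3158, 3201 and 2916 in Sin3a KD, with NC at 2856, 3357 and 2923, log2 difference -0.72 ± 0.091, adjusted p = 0.000206) and the helicase subunit Mcm3 higher (0.47). Of 8 CDK inhibitors, Cdkn2a was higher (146, 178 and 222 in Hdac1/2 cKD, 63.0, 43.2 and 43.3 in Sin3a KD, with NC at 39.9, 53.8 and 19.18, log2 difference 1.85 ± 0.29, adjusted p = 0.000725) and Cdkn2c lower (-1.20). Among homeobox, SOX and forkhead factors 3 of 45 were higher and 8 lower, though the median of the list was 0.26. Foxm1, a factor for mitotic genes, was 1 of the 3 (log2 difference 1.13 ± 0.15, adjusted p = 0.000273). In the 6-library fit with lane, the calls of Birc5, Ccnd2, Mcm3 and Cdkn2c were lost. Further calls were lost for Cdkn2a with lane in the 9-library fit and for Cdkn2c with all 9 libraries in the fit.

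Death and damage response genes leaned downward, that is, they were higher in Sin3a KD. Of 34 tested p53 targets and regulators, 9 were lower and 4 higher, and of 24 apoptosis genes 8 were lower and 2 higher (median -0.17). Bbc3, encoding the death activator PUMA, read 437, 468 and 716 in Hdac1/2 cKD, 1190.2, 969.6 and 1469 in Sin3a KD, with NC at 237, 394 and 448 (log2 difference -1.18 ± 0.20, adjusted p = 0.00244). Apaf1, the core of the apoptosome, differed by -0.68, and Dcxr, a sugar reductase, by -2.04. All 3 were high in Sin3a KD alone. Perp, a desmosomal p53 target, had the other order and was low in Hdac1/2 cKD alone, at 405, 439 and 594 in Hdac1/2 cKD, 1203, 1394 and 1457 in Sin3a KD, with NC at 993, 1249 and 1406 (log2 difference -1.51 ± 0.15, adjusted p = 4.72e-05), like Casp6 (-1.27). Protective genes lay on both sides, with the caspase inhibitor Xiap (-0.96) and Bcl2l1 (-0.77) lower and Birc5 (0.62) higher. Trp53 itself did not pass (0.28). The median of the p53 list was -0.21, and 0.012 in the 6-library fit with lane. Lane as a factor (6 libraries) ended the calls of Bbc3, Apaf1, Dcxr and Bcl2l1.

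Glycolysis genes had 8 higher and 2 lower of 26 (median 0.32). Beside Ldha, the lowest adjusted p in the list was that of Gapdh, glyceraldehyde phosphate dehydrogenase. Gapdh read 2682, 3081 and 3206 in Hdac1/2 cKD, 558, 805 and 789 in Sin3a KD, with NC at 564, 664 and 956 (log2 difference 2.07 ± 0.14, adjusted p = 4.59e-06 in limma). Pgk1 was stepwise (0.77) and Pgam1 low in Sin3a KD alone (0.97). These 4 genes, Hmga1 and Rpl7 have near-identical copies in the genome, so reads may have been split among copies. The hexokinase Hk2 and the glucose transporter Slc2a3 were the 2 lower genes (-0.66 and -0.51), and Aldoa did not pass (-0.053). Hkdc1, given above, stands outside this list and was higher by more (3.09). Pyruvate entry and citric acid cycle genes had 3 higher and 3 lower of 28, with Suclg2, a succinyl-CoA ligase subunit, low in Sin3a KD (log2 difference 1.11 ± 0.17, adjusted p = 0.000688) and the pyruvate dehydrogenase subunit Pdhb lower in Hdac1/2 cKD (-0.44). Of 45 respiratory chain genes 3 were higher, among them Atp5g3 (0.60), and 1 was lower (median -0.042). In fatty acid oxidation 4 of 27 were higher and 2 lower. Cpt1a, which lets fatty acids into mitochondria, read 1673, 1876 and 1367 in Hdac1/2 cKD, 644, 847 and 634 in Sin3a KD, with NC at 753, 895 and 586 (log2 difference 1.21 ± 0.15, adjusted p = 0.000179), while Slc25a20, the carnitine carrier that works next to it, was high in Sin3a KD (-0.70). Cholesterol and fatty acid synthesis split into 8 higher and 7 lower of 33 (median 0.088). The regulator Srebf2 read 401, 370.3 and 591 in Hdac1/2 cKD, 74.4, 84.1 and 147 in Sin3a KD, with NC at 148, 63.3 and 135 (log2 difference 2.18 ± 0.28, adjusted p = 0.000249), and Scd2 was higher too, whereas the pathway enzyme Sqle was lower (-0.83). The calls of Pgam1, Hk2, Pdhb and Sqle were lost in the 6-library fit with lane. Calls were also lost for Hk2, Slc2a3 and Pdhb with plain variances and for Slc2a3 with all 9 libraries in the fit.

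Chaperone and folding genes had 10 higher and none lower of 29 (median 0.27), and 1 had a lower value at an unadjusted p below 0.05 in limma. Besides Hspb1 and Hspa4, the endoplasmic reticulum chaperone Hsp90b1 read 2507, 2789.7 and 2357 in Hdac1/2 cKD, 1102, 1197 and 1176 in Sin3a KD, with NC at 1382, 1434 and 1769 (log2 difference 1.14 ± 0.10, adjusted p = 1.7e-05) and the disulfide isomerase Pdia4 1462, 1501 and 1383 in Hdac1/2 cKD, 452, 704 and 503 in Sin3a KD, with NC at 848, 848 and 943 (log2 difference 1.41 ± 0.15, adjusted p = 8.19e-05). For both, NC lay between the knockdowns. The heat shock factor Hsf1 (0.088) and the inducible Hspa1a (-0.30) did not pass. Integrated stress response genes had 4 higher and 6 lower of 25 (median 0.042). The amino acid transporter subunit Slc3a2 was lower (-0.52) and the serine enzyme Shmt2 higher (1.05). The solute carriers in the list had 6 higher and 10 lower of 34 (median -0.14), while all 235 tested Slc genes had 25 and 37 (median 0.0061). Slc6a14, an amino acid carrier, read 81.8, 118 and 103 in Hdac1/2 cKD, 275, 397 and 299 in Sin3a KD, with NC at 291, 465 and 395 (log2 difference -1.67 ± 0.23, adjusted p = 0.00036), and the phosphate carrier Slc34a2 was also low in Hdac1/2 cKD alone (-0.76). Lysosome and autophagy genes had 6 in each direction of 34, and 2 cathepsins moved apart: Ctsa was low in Hdac1/2 cKD (log2 difference -0.87 ± 0.078, adjusted p = 2.07e-05) and Ctsb low in Sin3a KD (log2 difference 0.94 ± 0.11, adjusted p = 0.000141). In the aldo-keto reductase and glutathione list 5 of 22 were higher, led by Gstp1 (1.69), and 1 was lower, Akr1b8, at 96.4, 105 and 109.8 in Hdac1/2 cKD, 337, 441 and 291 in Sin3a KD, with NC at 450.3, 488 and 500.2 (log2 difference -1.75 ± 0.22, adjusted p = 0.000169). In the 6-library fit with lane, the calls of Slc3a2 and Shmt2 were lost (adjusted p 0.0816 to 0.166).

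Genes known from neurons and germ cells were called higher more often than lower. Neuronal genes had 12 higher and 2 lower of 40 tested, and the median of 0.69 was the largest of any list with at least 20 tested members. Of 63 in the file, 40 passed the filter, which low genes can pass through the Hdac1/2 cKD libraries alone. In the lowest of 5 bins of NC level the median of all tested genes was 0.22, and list medians were not matched for level. The 2 lower genes, Rest (-0.35) and Rcor1 (-0.40), encode repressors of neuronal genes. Nefh, the heavy neurofilament chain, read 371, 398 and 505 in Hdac1/2 cKD, 72.6, 114 and 103 in Sin3a KD, with NC at 62.7, 84.5 and 97.9 (log2 difference 2.14 ± 0.23, adjusted p = 6.82e-05), and Camk2b, a synaptic kinase, 633, 651 and 544 in Hdac1/2 cKD, 158, 193 and 122 in Sin3a KD, with NC at 278, 247 and 115 (log2 difference 1.96 ± 0.20, adjusted p = 4.13e-05). In both, Hdac1/2 cKD exceeded every other library. Syp, encoding synaptophysin, was instead low in Sin3a KD, with NC at 527, 269 and 412, Sin3a KD at 90.3, 169.7 and 42.9 and Hdac1/2 cKD at 344, 503 and 294 (2.08). Germline genes had 11 higher and 2 lower of 42 (median 0.031). The helicase gene Ddx4, the vasa homologue, read 419, 422 and 450.0 in Hdac1/2 cKD, 101, 113 and 109.6 in Sin3a KD, with NC at 157, 216 and 133 (log2 difference 1.98 ± 0.18, adjusted p = 2.51e-05), and Tex19.2 91.7, 93.1 and 122 in Hdac1/2 cKD, 13.3, 22.7 and 11.7 in Sin3a KD, with NC at 35.8, 61.6 and 41.9 (log2 difference 2.66 ± 0.39, adjusted p = 0.000539). Both lay above NC in Hdac1/2 cKD and below it in Sin3a KD, whereas Sycp3, of the meiotic axis, was high in Hdac1/2 cKD alone (1.02). Of 5 deiminase genes, Padi3 and Padi2 (0.87) were higher. By contrast, 1 of 26 maternal and egg genes (Khdc3, -0.53) and 1 of 23 genes of the 2-cell stage (Arg2, -1.81) passed, both lower (medians -0.20 and -0.066). Lane as a factor (6 libraries) ended the calls of Syp, Sycp3, Padi2, Khdc3 and Rest. Other losses were those of Syp, Padi2, Khdc3, Rest and Rcor1 with plain variances and of Padi2 with all 9 libraries in the fit. The Syp call was lost without Sin3a KD replicate 1. The Padi2 call was lost without Hdac1/2 cKD replicate 2 or 3 or Sin3a KD replicate 1 or 3 (highest adjusted p 0.115). The Rcor1 call was lost without Hdac1/2 cKD replicate 3.

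Ribosomal protein genes were nearly level: 4 of 76 were higher and 2 lower, with a median of 0.035 that turned to -0.0059 under trimmed mean scaling. Rpl3, Rpl10a and Rpl7, 3 of the 4, were low in Sin3a KD alone. Rpl3 read 10081, 10295 and 8308 in Hdac1/2 cKD, 3651, 5281 and 4686 in Sin3a KD, with NC at 11393, 7245 and 10760.3 (log2 difference 1.08 ± 0.13, adjusted p = 0.000343), Rpl10a differed by 0.72, and Rpl7 read 13385, 13526 and 13506 in Hdac1/2 cKD, 1591, 4545 and 1911 in Sin3a KD, with NC at 14084, 9819 and 17468 (log2 difference 2.49 ± 0.44, adjusted p = 0.0206). The Rpl7 call was lost in 4 of the 6 fits that leave 1 library out, namely without any 1 Hdac1/2 cKD library or without Sin3a KD replicate 3 (highest adjusted p 0.0805). Ribosome biogenesis genes had 4 higher and 8 lower of 42 (median -0.083), between -0.47 and 0.61, with Ubtf, which opens ribosomal RNA genes, at -0.38 and the nucleolar GTPase Gnl3 at 0.61. Splicing and RNA export genes had 7 higher and 1 lower of 35, with the RNA-binding protein gene Hnrnpk at 0.68 and the import receptor Kpnb1 at 0.59. Without 1 library 2 to 5 of them were higher, and with lane in the 6-library fit 0. The interferon list had 1 higher, Stat2, which was low in Sin3a KD (log2 difference 1.39 ± 0.20, adjusted p = 0.000549), and 1 lower of 19. The calls of Rpl7, Ubtf, Gnl3, Hnrnpk, Kpnb1 and Stat2 were lost in the 6-library fit with lane (adjusted p 0.0592 to 0.197). Calls were also lost for Ubtf and Hnrnpk with plain variances.

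**Figure D4:**
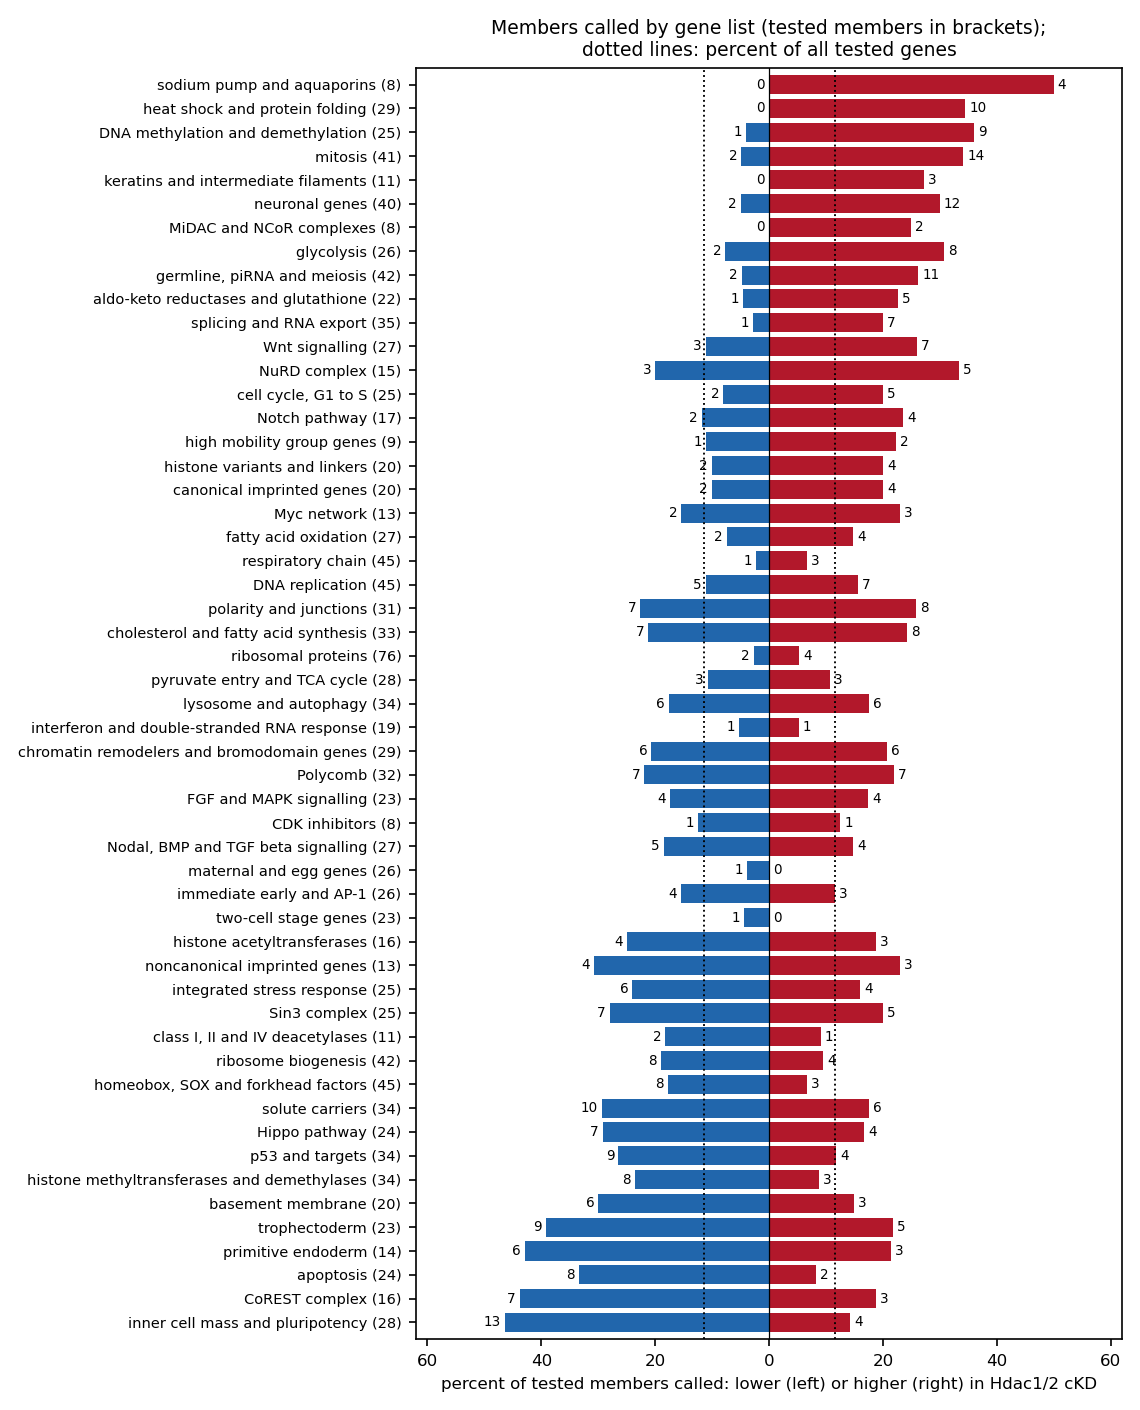
Percent of tested members called lower (left, blue) or higher (right, red) in Hdac1/2 cKD for each list with at least 8 tested members (rows, tested number in brackets), with the number called at each bar and dotted lines at the 11.6% and 11.5% of all tested genes. Chaperones have 10 of 29 members higher and none lower, inner cell mass genes have 13 of 28 lower, and ribosomal proteins lie inside the dotted lines.

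Higher and lower genes differed in their level in NC, which the test did not use but the filter did. The median NC value was 296 for higher and 764 for lower genes, against 216 for all tested genes. Genes higher by at least 1 on the log2 scale had a median of 69.4 in NC and those lower by at least 1 a median of 148. Below 50 in NC were 41.8% of the former and 19.6% of the latter, against 28.5% of all tested genes. Tested genes were split by NC level into 5 bins of nearly equal size. In the lowest bin 6.97% of genes were higher and 1.61% lower. In the highest bin 13.9% were higher and 22.9% lower. A higher share of low-level genes was thus called higher than lower, and the reverse held at high levels. Genes low in NC could pass the filter through the knockdown libraries where they are high, and near the floor there is little room for a lower value. The split at low levels is therefore partly built in, and how much of it was not tested. Fewer genes passed in the lowest bin than in the others. The median GC content of transcripts was 52.2% for higher, 50.2% for lower and 50.3% for all tested genes with a match in the GENCODE annotation of the same build (95.6%). The X chromosome held 4.40% of the matched higher and 2.65% of the matched lower genes, against 3.56% of all.

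**Figure D5:**
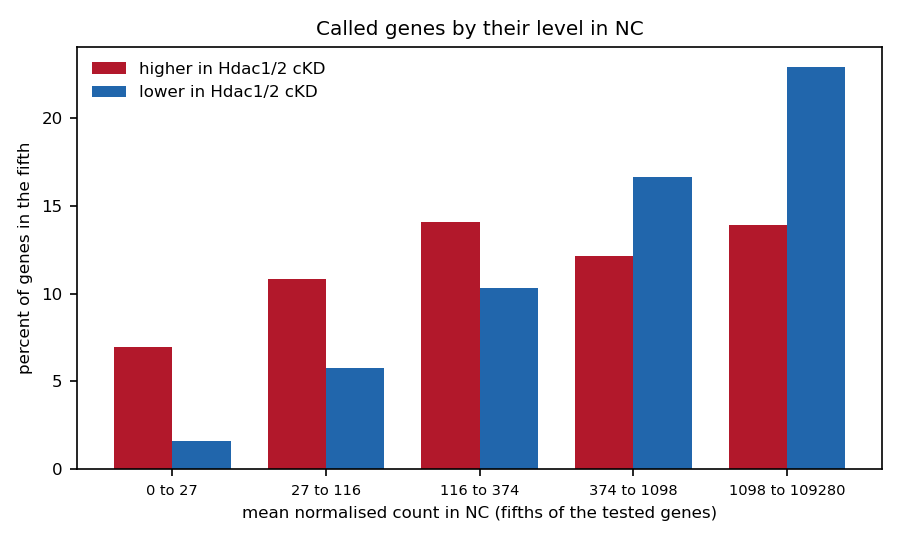
Percent of tested genes called higher (red) or lower (blue) in Hdac1/2 cKD than in Sin3a KD (y axis) in 5 bins of the mean normalised count in NC (x axis), with 2668 or 2669 genes in each. The blue bars climb from 1.61% to 22.9%, while the red bars run from 6.97% to 14.1%.

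Markers of sperm, blood and fibroblasts were low apart from single genes, while several cumulus and egg markers were above the floor. Of 15 cumulus and granulosa cell markers 10 were in the table, and their sums ran from 330.0 to 402 in Hdac1/2 cKD, from 307 to 439 in Sin3a KD, most of it Amhr2. Of 4 tested, none passed in limma, and 0 was higher and 0 lower at an unadjusted p below 0.05. Sperm markers summed to 13.8 to 21.3 and 1.61 to 15.3, and 6 of 7 were below 10 in all libraries. Blood and macrophage markers summed to 126 to 152 and 48.9 to 66.3, mostly Cd68 (log2 difference 1.48 ± 0.31, adjusted p = 0.00464), and Ptprc averaged 10.2 and 5.56. Fibroblast markers summed to 70.7 to 138 and 185 to 243, mostly Pdgfra, which the primitive endoderm also expresses, and Dcn and Col3a1 were at 0 in every Sin3a KD and NC library. Egg markers summed to 315 to 340.1 and 311 to 350.4, and 7 of 8 were tested. Zp3 averaged 101 in Hdac1/2 cKD and 61.0 in Sin3a KD, and Nlrp5 76.8 and 85.8. The part of other cells in the results was not tested. In the 6-library fit with lane, the call of Cd68 was lost (adjusted p 0.123).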

How the data were processed

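RNA was sequenced from 9 libraries of mouse embryos at E2.75, each a pool of 60 whole embryos, in 3 groups of 3. Salmon and DESeq2 with the GRCm38 build are named in the submitters' processing notes, and for the tool versions and the annotation the sources used here give nothing. The deposited signal values are gene counts that the authors divided by size factors. Low values lay within 0.1 of a whole step in 68.3 to 78.9% of cases per library, so whole reads were not recovered, and no count model was run. Per the labels' protocols, foreign reporter mRNA was added before extraction. It was not used here, so each value is relative within its library. A line with no gene name (under 0.01% of each total) was left out.

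Values were taken as log2(value + 1). A linear model (limma 3.58.1, R 4.3.3, trend and robust) compared the 6 knockdown libraries, with 4 residual degrees of freedom, p-values adjusted by Benjamini-Hochberg over all 13343 tested genes and a threshold of 0.05. The code was tested on simulated data. Medians and counts describe 59 gene lists with 1337 distinct tested genes. Members and lists were chosen with earlier results of these data known. Named genes are the siRNA targets, the 12 highest and 12 lowest differences of called genes that averaged 50 or more without overlap (predicted models left out), and from each list the called members lowest in adjusted p, 4 at most, or 2 at most where none passed. The others, among them Gata3, Esrrb, Tfap2c, Pou5f1, Ccnd2 and the genes that did not pass, were chosen after their values were seen. Alternatives covered the filter, the pseudocount, 2 scalings, plain variances, all 9 libraries, lane, the replicate block and each library left out.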

Additional observations from a re-analysis of the deposited data

How the results depend on the processing

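No called gene was called in the other direction in any fit of all genes that was run. Where the groups do not overlap, the 6-library fit with lane and the fits without 1 library could not reverse a sign. With lane and 9 libraries the sign was kept by 1540 of 1548 higher and 1528 of 1529 lower calls. The numbers of higher and lower genes were 954 and 827 with plain variances, 306 and 321 with lane in the 6-library fit and 450 and 552 with lane and 9 libraries. Without 1 library they ranged from 1072 to 1434 and from 999 to 1311. Of the 1548 and 1529 calls, 300 and 298 were kept with lane in the 6-library fit, which has 2 residual degrees of freedom, so fewer calls follow in part from its construction. The other filters, pseudocounts and scalings and the fit of all 9 libraries gave 1133 to 1640 higher and 1171 to 1697 lower genes. Deviations of same-numbered libraries from their group means correlated over genes at -0.0018, 0.030 and 0.011, and those of other pairs at -0.025 to 0.014. Such values cannot decide whether equal numbers mark a shared collection, which is not in the labels. The replicate block gave 1532 higher and 1554 lower genes, and of the named calls it ended that of Ep400.

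NC lay between the knockdowns for 63.8% of called genes, and for 59.3 to 63.9% without 1 NC library (59.3% without replicate 2). These shares are partly built in, because calls need a gap between the knockdown means. At equal totals NC was nearer to Sin3a KD for 70.1% of higher and 49.2% of lower genes. Of 205 named calls, 102 held in every alternative, 92 were lost with lane in the 6-library fit, and 179 held without any 1 library. Among the named genes, the differences that changed sign belonged to 3 that had not passed. Cyp11a1 went to -0.28 with lane (6 libraries), and Acrv1 to -0.80 with lane (9 libraries). Foxl2 went to 0.92 and 0.58 with lane (6 and 9 libraries), and ranged from -0.71 to 0.30 without 1 library, with 0.30 without Hdac1/2 cKD replicate 1 and 0.093 without Sin3a KD replicate 1. The cause of these shifts was not tested. In the lowest of 5 bins of NC level 6.97% of genes were called higher and 1.61% lower. The part of depth, of the filter and of the floor in this was not tested.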

Other observations

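Gene families outside the lists were also counted, and those named here were chosen after their values were seen. They were counted in the main fit alone, so losses of family calls with lane or without 1 library are not given. Of 15 tested tubulin genes, which encode the subunits of microtubules, 7 were higher in Hdac1/2 cKD than in Sin3a KD (median 0.66). Tuba1b averaged 2505 ± 187 in Hdac1/2 cKD, 831 ± 74.3 in Sin3a KD and 1073 ± 226 in NC (SD, n = 3; log2 difference 1.59 ± 0.11, adjusted p = 3.41e-06 in limma). Tuba1c followed with 1.23, and Tubb4b with 0.66, while Tubb6 was near the threshold (0.51, adjusted p = 0.0465 in limma). The gamma tubulin gene Tubg1, whose product nucleates microtubules, did not pass (-0.18). Of 10 septins, which form filaments at the cell cortex, 4 were higher, among them Sept11 (1.30) and Sept7 (0.81), and Sept12 was lower (-1.39). Sept5, also higher, averaged only 26.1 in Hdac1/2 cKD and 5.70 in Sin3a KD (adjusted p = 0.0484 in limma). Of 19 cyclin genes 8 were higher (median 0.46), a family that includes the D-type cyclins and Ccna2. Of 13 protein-coding genes of the mitochondrial genome 3 were higher, mt-Co1 (0.33), mt-Co3 (0.30) and mt-Atp6 (0.25, adjusted p = 0.0485 in limma).

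Families with more lower than higher calls included the Rnf ring finger genes, with 11 lower and 3 higher of 64 (median -0.14), and the predicted Gm gene models, with 50 lower and 20 higher of 620 (median -0.15). Zfp zinc finger genes had 35 lower and 22 higher of 298 (median -0.022). The lower share of the Gm models was below, and that of the Zfp genes near, the 11.5% of all tested genes. Proteasome subunits (3 in each direction of 47) had a median of 0.024, near that of all genes.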
